A study of Mus musculus with 9 samples.

Results

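The 10 early lymphoid and B cell genes Dntt, Blnk, Cd79a, Cd79b, Rag1, Rag2, Igll1, Vpreb1, Vpreb3 and Ebf1 were followed through 3 populations of dendritic cell (DC) progenitors on mouse microarrays. They were taken by name, with earlier results of these data known. They made up 10 of the 19938 genes that had a probe set annotated with 1 gene symbol. Each had exactly 1 such probe set. The cells were sorted from the bone marrow of mice carrying 1 copy of a Zbtb46-GFP reporter, in which green fluorescent protein marks cells that transcribe the DC transcription factor gene Zbtb46. All groups share this genotype, and the labels give no age, treatment, sex or sort gates. The groups were common DC progenitors without the reporter signal (Zbtb46- CDPs), common DC progenitors with it (Zbtb46+ CDPs) and, from the labels, Pre-CD8 DCs, cells on the way to the CD8 type of DC, with 3 arrays each. The labels do not say whether the 3 arrays of a group came from separate mice, so a p-value here measures the spread between these arrays, which may be technical, and their number limits the precision.

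B and T lymphocytes assemble their antigen receptor genes by V(D)J recombination, in which the RAG proteins cut the DNA and terminal deoxynucleotidyl transferase, the product of Dntt, adds untemplated nucleotides at the joins. In the B lineage the factor EBF1 commits progenitors to the B fate, and the first heavy chain is tested on the surface together with a surrogate light chain made from Igll1 and Vpreb genes. That receptor signals through CD79A and CD79B to the adaptor BLNK. Lymphoid-primed progenitors of the bone marrow can transcribe some of these genes before any B cell commitment, and DC progenitors arise from overlapping precursors.

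The promoters of Dntt and Blnk are shown because these genes lie side by side on mouse chromosome 19, are read away from each other, and were the members with the largest differences between the groups. The promoter of Cd79a, whose signal stayed dim in every group, is shown for contrast. Each window runs from 250 bases before to 50 bases after the annotated start, 5′ to 3′ on the gene's own strand, from RefSeq on build GRCm38.p6. Promoter windows were matched by symbol for 9 of the 10 members, all but Cd79b. Capitals mark matches to any of 4 short motifs on either strand: the E box CANNTG bound by E proteins, the octamer ATGCAAAT bound by Oct factors, the half-site pair CCCNNGGG of the kind bound by EBF1, and the Runx core TGTGGT.
Dntt, chr19:41029025-41029324, plus strand: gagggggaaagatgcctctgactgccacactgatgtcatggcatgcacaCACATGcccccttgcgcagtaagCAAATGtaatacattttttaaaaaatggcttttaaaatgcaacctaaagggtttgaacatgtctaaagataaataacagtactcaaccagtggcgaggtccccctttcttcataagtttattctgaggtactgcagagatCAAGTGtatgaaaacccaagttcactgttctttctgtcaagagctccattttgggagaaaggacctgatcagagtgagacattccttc
Blnk, chr19:40994172-40994471, minus strand: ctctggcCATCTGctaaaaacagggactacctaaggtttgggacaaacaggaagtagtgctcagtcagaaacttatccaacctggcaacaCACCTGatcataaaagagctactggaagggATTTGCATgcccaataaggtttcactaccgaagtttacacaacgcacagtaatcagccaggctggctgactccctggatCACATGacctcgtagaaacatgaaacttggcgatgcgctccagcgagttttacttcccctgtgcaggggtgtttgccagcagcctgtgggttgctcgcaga
Cd79a, chr7:24897247-24897546, plus strand: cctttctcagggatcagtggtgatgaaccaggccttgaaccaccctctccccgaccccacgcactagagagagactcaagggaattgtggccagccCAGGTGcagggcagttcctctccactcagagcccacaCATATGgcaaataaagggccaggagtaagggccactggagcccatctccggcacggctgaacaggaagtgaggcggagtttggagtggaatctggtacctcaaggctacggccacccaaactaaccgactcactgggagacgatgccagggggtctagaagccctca
The Dntt window held 3 E boxes and no other match, the Blnk window 3 E boxes and 1 octamer, and the Cd79a window 2 E boxes. Matches did not overlap each other in these windows. Of 32851 promoter windows of the same length, 72.3% held an E box, 1.74% the octamer, 13.7% the half-site pair and 16.8% the Runx core. Among the other members the octamer was found in Vpreb3 (1 match), the half-site pair in Igll1 (1 match) and the Runx core in Rag1 (2 matches), Igll1, Vpreb3 and Ebf1 (1 match each). These are matches of letters within the windows searched, and binding was not measured.

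Dntt, Blnk and Cd79b fell between Zbtb46- CDPs and Zbtb46+ CDPs, and no member rose. Dntt fell most, 5.63-fold, Blnk fell 1.99-fold and Cd79b fell by 0.52 on the log2 scale. The other 7 members did not pass the test in any of the 3 comparisons. Between Zbtb46+ CDPs and Pre-CD8 DCs no member passed. Levels below are log2 of the deposited signal, and differences are log2 differences of group means tested with limma, with p-values adjusted by the Benjamini-Hochberg method over all 19938 genes and called under 0.05.

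**Figure D1:**
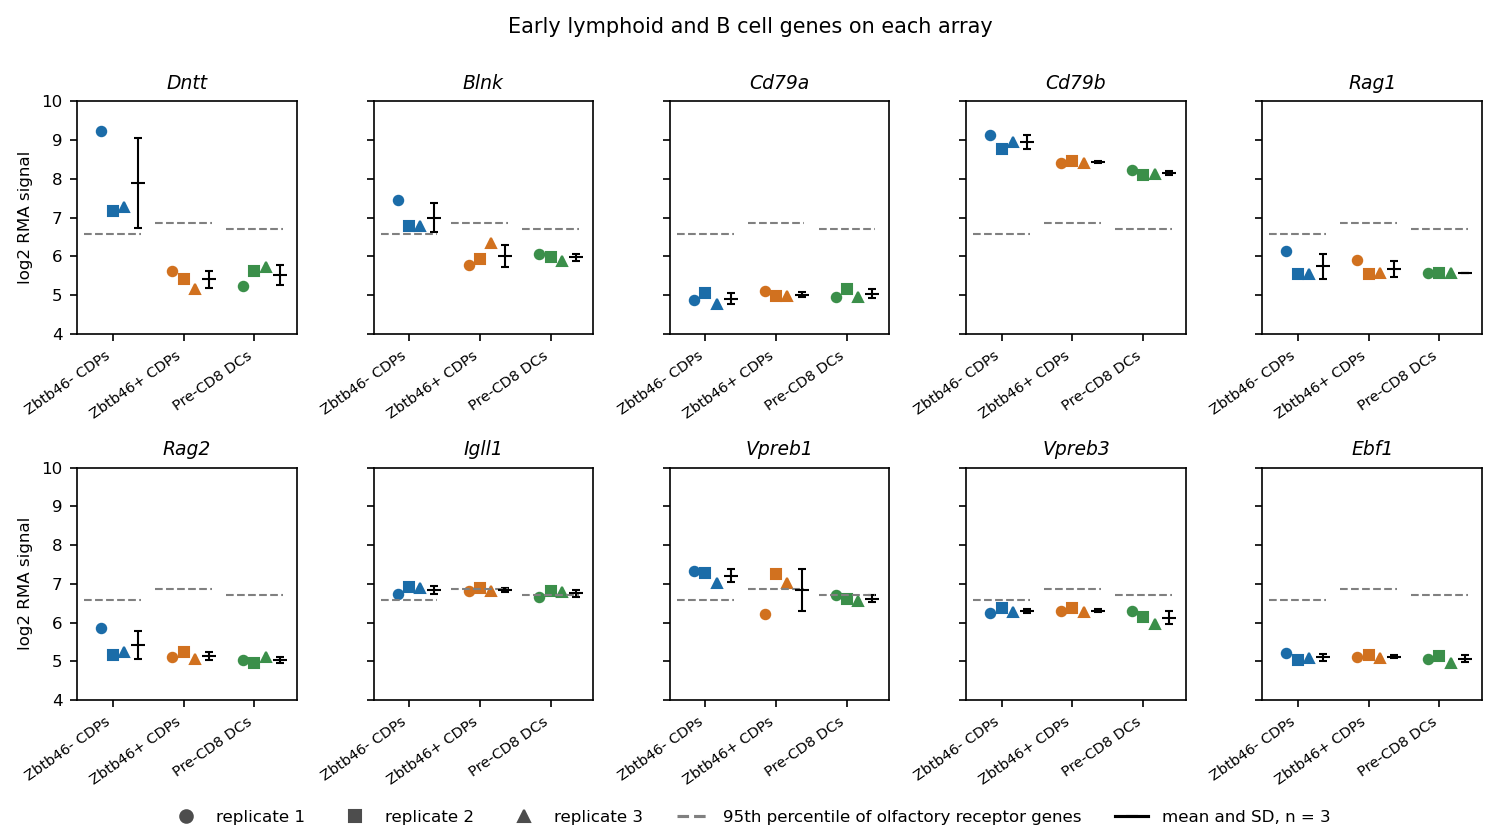
Log2 signal (y axis) of the 10 genes on each of the 9 arrays, by population (x axis); symbols give the replicate, bars the mean and SD of 3 arrays, and dashed lines the 95th percentile of the olfactory receptor genes in that population. Dntt and Blnk lie above the dashed line in Zbtb46- CDPs and below it in the other populations, Cd79b lies above it in all, and Cd79a, Rag1, Rag2, Vpreb3 and Ebf1 lie below it in every population.

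The files give no detection p-value, so 1027 olfactory receptor genes, which these cells are not known to use, served as a dim reference on the same arrays. Their 95th percentile was 6.57 in Zbtb46- CDPs, 6.87 in Zbtb46+ CDPs and 6.71 in Pre-CD8 DCs. Probe sets differ in brightness for the same amount of RNA, so a place within this range describes the signal only. A difference from or to a level inside the range may understate the change in transcript. In these bulk samples, fewer cells with a transcript and less of it per cell cannot be told apart.

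Among the genes of V(D)J recombination, Dntt (probe set 10463123) was read at 9.24, 7.18 and 7.26 in replicates 1, 2 and 3 of Zbtb46- CDPs. In Zbtb46+ CDPs it was read at 5.61, 5.42 and 5.16, and in Pre-CD8 DCs at 5.23, 5.63 and 5.71. Every Zbtb46- CDP array lay above all 6 others, and replicate 1 stood well above its own group. The difference between the CDP groups was -2.49 (SE 0.471, 95% interval -3.56 to -1.43, limma adjusted p = 0.0078). From Zbtb46- CDPs to Pre-CD8 DCs it was -2.37 (SE 0.471, limma adjusted p = 0.00797), while the Zbtb46+ CDPs and Pre-CD8 DCs overlapped (0.12, 95% interval -0.94 to 1.19, limma adjusted p = 0.912). Without replicate 1 of Zbtb46- CDPs the difference between the CDP groups was -1.82 and still called (limma). Among the olfactory receptor genes the mean signal lay at percentile 99.7 in Zbtb46- CDPs, 53.7 in Zbtb46+ CDPs and 65.1 in Pre-CD8 DCs.

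Rag1 and Rag2, which encode the subunits of the recombinase, were not called in any comparison. As a description, the Pearson r with Dntt over the 9 arrays was 0.62 for Rag1 and 0.88 for Rag2. It was 0.92 for Blnk and 0.89 for Cd79b. Rag1 was at 6.13, 5.54 and 5.55 in Zbtb46- CDPs, at 5.91, 5.53 and 5.57 in Zbtb46+ CDPs and at 5.56, 5.57 and 5.57 in Pre-CD8 DCs. Replicate 1 of each CDP group was high, and the other 7 arrays lay within 5.53 and 5.57. Rag2 was at 5.85, 5.17 and 5.24 in Zbtb46- CDPs, at 5.11, 5.25 and 5.06 in Zbtb46+ CDPs and at 5.04, 4.95 and 5.10 in Pre-CD8 DCs. Its 3 Pre-CD8 DC arrays lay below all Zbtb46- CDP arrays, by a mean of 0.39, which did not pass (difference -0.39, 95% interval -0.75 to -0.03, limma adjusted p = 0.167). Both genes stayed inside the olfactory receptor range in all groups, at most at percentile 77.1 for Rag1 and 67 for Rag2.

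Of the signalling genes, Blnk (probe set 10467508), the adaptor that links the kinase SYK to downstream enzymes, was at 7.44, 6.79 and 6.77 in Zbtb46- CDPs. It was at 5.77, 5.92 and 6.33 in Zbtb46+ CDPs and at 6.05, 5.97 and 5.88 in Pre-CD8 DCs. As with Dntt, every Zbtb46- CDP array was above all others and the other populations overlapped. The CDP groups differed by -0.99 (SE 0.195, 95% interval -1.43 to -0.55, limma adjusted p = 0.00947) and Pre-CD8 DCs differed from Zbtb46- CDPs by -1.03 (SE 0.195, limma adjusted p = 0.00615). From Zbtb46+ CDPs to Pre-CD8 DCs the difference was -0.04 with an interval of -0.48 to 0.40 (limma adjusted p = 0.932).

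Cd79b (probe set 10392142), a signalling chain of the B cell receptor, was the brightest relative to the olfactory receptor range, at its percentile 99.9 in each population. It was at 9.14, 8.77 and 8.94 in Zbtb46- CDPs, at 8.42, 8.46 and 8.40 in Zbtb46+ CDPs and at 8.23, 8.11 and 8.12 in Pre-CD8 DCs. The 3 groups did not overlap, and the signal stepped down from each to the next. The CDP groups differed by -0.52 (SE 0.0949, limma adjusted p = 0.00644) and Zbtb46- CDPs and Pre-CD8 DCs by -0.80 (SE 0.0949, limma adjusted p = 0.000408). The second step, -0.27 with an interval of -0.49 to -0.06, did not pass (limma adjusted p = 0.144).

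Cd79a, the partner chain of CD79B in the receptor, did not step down with it. It was at 4.88, 5.05 and 4.77 in Zbtb46- CDPs, at 5.09, 4.97 and 4.97 in Zbtb46+ CDPs and at 4.96, 5.16 and 4.96 in Pre-CD8 DCs. All groups overlapped near the middle of the olfactory receptor range (percentiles 38.2 to 45.2), and the CDP groups differed by 0.11 (95% interval -0.10 to 0.33, limma adjusted p = 0.451).

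The surrogate light chain genes gave a mixed picture. Igll1, which encodes the lambda-5 chain, was at 6.73, 6.93 and 6.88 in Zbtb46- CDPs, at 6.82, 6.89 and 6.82 in Zbtb46+ CDPs and at 6.65, 6.82 and 6.78 in Pre-CD8 DCs. Its groups overlapped, and the interval for the CDP difference ran from -0.18 to 0.18 around 0.00. Vpreb1, which encodes the V-like part of the same light chain, was at 7.33, 7.27 and 7.02 in Zbtb46- CDPs, at 6.22, 7.25 and 7.01 in Zbtb46+ CDPs and at 6.71, 6.61 and 6.55 in Pre-CD8 DCs. Replicate 1 of the Zbtb46+ CDPs was lower than any other array, and the other 2 of that group lay with or close to the Zbtb46- CDPs. Pre-CD8 DCs lay below every Zbtb46- CDP array without passing (-0.58, 95% interval -1.10 to -0.07, limma adjusted p = 0.141). Vpreb3, a related chain gene expressed in B cell precursors, was at 6.25, 6.37 and 6.27, then 6.31, 6.37 and 6.27, and then 6.30, 6.14 and 5.95 in the same order of groups, which overlapped.

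Ebf1, the B lineage commitment factor gene, was flat. It was at 5.21, 5.04 and 5.08 in Zbtb46- CDPs, at 5.11, 5.16 and 5.08 in Zbtb46+ CDPs and at 5.07, 5.14 and 4.96 in Pre-CD8 DCs. The interval of the CDP difference was -0.17 to 0.18, and the signal stayed between percentiles 42.6 and 53.7 of the olfactory receptor genes.

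Counted over the members, 3 of 10 were lower and 0 higher in Zbtb46+ CDPs than in Zbtb46- CDPs, where 10.6% of all genes were lower (2105) and 3.85% higher (768). In Pre-CD8 DCs against Zbtb46+ CDPs 0 of 10 were called, where 1.86% of all genes were lower (370) and 4.76% higher (949). In that comparison 1 member, Cd79b, was lower at an unadjusted limma p under 0.05. In Pre-CD8 DCs against Zbtb46- CDPs 3 of 10 were lower and 0 higher, where 9.23% of all genes were lower (1841) and 6.43% higher (1282). A moderated F test over the 3 groups called 3 of 10, again Dntt, Blnk and Cd79b, where it called 19.1% of all genes (3816). The members' median differences were -0.18, -0.10 and -0.28, against 0.04, -0.03 and 0.01 over all genes. The comparisons share groups and are not independent of each other. The members were chosen with earlier results of these data known, so their shares beside those of all genes are descriptions. After another quantile normalization the split of all genes was 1230 higher and 1528 lower between the CDP groups, and 755 higher and 651 lower from Zbtb46+ CDPs to Pre-CD8 DCs. With it Cd79b was also called lower in the latter comparison (-0.37, limma adjusted p = 0.0327).

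**Figure D2:**
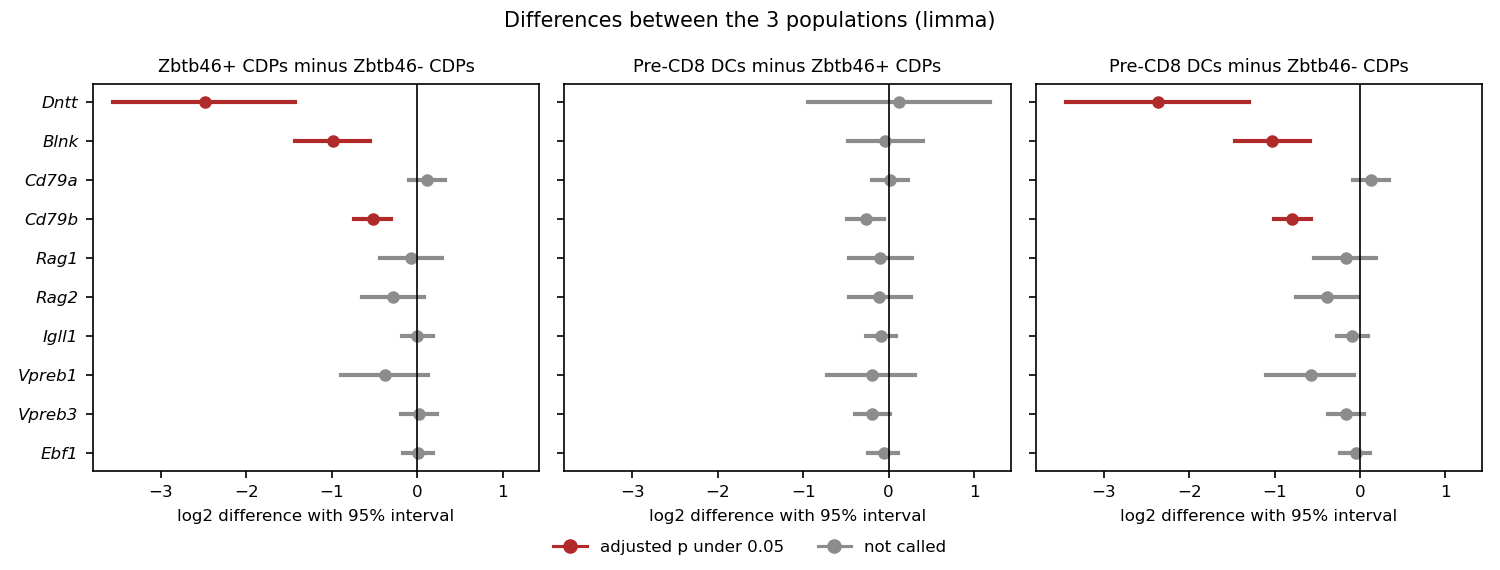
Log2 differences (x axis) of the 10 genes (y axis) in the 3 comparisons, with 95% intervals from limma; red marks an adjusted p under 0.05. Dntt, Blnk and Cd79b lie left of zero in both panels that include Zbtb46- CDPs. Every interval for Pre-CD8 DCs minus Zbtb46+ CDPs crosses zero except that of Cd79b, which was not called after adjustment.

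Replicate 1 of Zbtb46- CDPs and replicate 1 of Zbtb46+ CDPs stood apart from the other arrays. Xist, the RNA that coats the inactive X chromosome, was read at 5.59 and 5.30 there and between 11.85 and 12.29 on the other 7 arrays. The labels do not give the sex of the mice. The summed linear signal of 11 granulocyte genes was 27837 to 32557 in Zbtb46- CDPs, 32464 in replicate 1 of Zbtb46+ CDPs against 8124 and 8060 in its other arrays, and 1130 to 2133 in Pre-CD8 DCs. The mean log2 signal of these genes, in which each counts alike, was high in replicate 1 of both CDP groups, at 10.53 against 8.79 and 9.14 in Zbtb46- CDPs and at 11.08 against 7.96 and 7.81 in Zbtb46+ CDPs. Ngp, a neutrophil granule protein gene, was at 10.48 in replicate 1 of Zbtb46- CDPs, the array with the highest Dntt. In replicates 2 and 3 it was at 5.70 and 6.84. In Zbtb46+ CDPs it was at 12.36, 5.39 and 5.73. Xist and Ngp were singled out after their values had been seen. Several members differed more between the 2 replicate 1 arrays than between the others. The Dntt difference between the CDP groups was -3.63 in replicate 1 and -1.93 between the means of replicates 2 and 3. For Blnk these were -1.66 and -0.65, for Cd79b -0.72 and -0.43, for Rag2 -0.74 and -0.06, and for Vpreb1 -1.11 and -0.01.

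**Figure D3:**
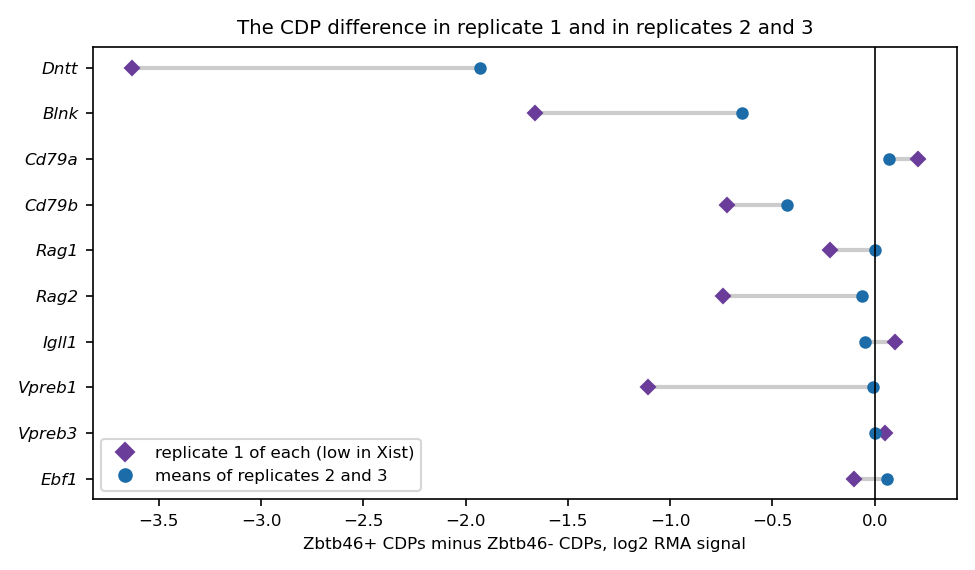
The log2 difference between Zbtb46+ and Zbtb46- CDPs (x axis) for each of the 10 genes (y axis), in replicate 1 of each group (diamonds, the arrays low in Xist) and between the means of replicates 2 and 3 (circles). Dntt, Blnk and Cd79b lie left of zero in both, whereas Rag2 and Vpreb1 lie clearly left of zero in replicate 1 and close to zero in the others.

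With both arrays left out, Dntt, Blnk and Cd79b were still lower in Zbtb46+ CDPs. The differences were -1.93 for Dntt (SE 0.162, limma adjusted p = 0.000393), -0.65 for Blnk (SE 0.13, limma adjusted p = 0.0117) and -0.43 for Cd79b (SE 0.0808, limma adjusted p = 0.00981). Then 3 of 10 members were lower, where 13.8% of all genes were. From Zbtb46+ CDPs to Pre-CD8 DCs 2 of 10 were lower, Cd79b (-0.27, limma adjusted p = 0.0387) and Vpreb1 (-0.51, limma adjusted p = 0.0168), where 7.87% of all genes were. From Zbtb46- CDPs to Pre-CD8 DCs 4 of 10 were lower, where 10.8% of all genes were, Vpreb1 (-0.52, limma adjusted p = 0.0113) joining the others. The call of Vpreb1 hung on replicate 1 of Zbtb46+ CDPs: with that array alone left out it was called lower in Pre-CD8 DCs than in Zbtb46+ CDPs (-0.51, limma adjusted p = 0.0229) and than in Zbtb46- CDPs (-0.58, limma adjusted p = 0.00344).

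The labels of the populations were set against marker genes. Zbtb46 was at 6.53 ± 0.34 in Zbtb46- CDPs, 7.24 ± 0.23 in Zbtb46+ CDPs and 7.51 ± 0.11 in Pre-CD8 DCs (SD, n = 3). Of 10 marker genes of cDC1, the lineage of CD8 DCs, 6, 7 and 8 rose in the 3 comparisons with 0 falling. Of all genes 3.85%, 4.76% and 6.43% rose and 10.6%, 1.86% and 9.23% fell in the same order. The 10 markers include Zbtb46 itself, which was among those that rose from Zbtb46- CDPs to each other population. Its reporter separates the CDP groups, so its rise is not separate evidence for their labels. The rise of Zbtb46 between the CDP groups (0.71, limma adjusted p = 0.0261) did not pass without the arrays low in Xist (0.45, limma adjusted p = 0.0891). Markers of mature B cells were dim in part. The B cell factor gene Pax5 was at 6.40 ± 0.06, 6.44 ± 0.00 and 6.47 ± 0.05 (SD, n = 3), and Ms4a1, which encodes CD20, at 4.95 ± 0.23, 5.12 ± 0.13 and 5.34 ± 0.15. Both lay under the 95th percentile of the olfactory receptor genes in every population, while Ighm, the mu heavy chain gene, lay above it at 7.03 ± 0.19, 7.25 ± 0.22 and 7.20 ± 0.03. Pax5, Ms4a1 and Ighm did not pass the test in any comparison. Tnfrsf13c, which encodes the BAFF receptor of B cells, also lay above it, at 7.98 ± 0.07, 8.14 ± 0.07 and 8.37 ± 0.17, as did Cd22 and Fcrla, described next.

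Of 10 B cell markers measured, 3 were higher and 0 lower in Zbtb46+ than in Zbtb46- CDPs, opposite in direction to the falls of Dntt, Blnk and Cd79b. The count of 0 holds for this list. Cd72, counted only among the receptor signalling genes below, was lower between the CDP groups (-0.83, limma adjusted p = 0.00568). It was also lower from Zbtb46- CDPs to Pre-CD8 DCs (-0.92, limma adjusted p = 0.00226), and was named after its values had been seen. The summed linear signal of the 10 markers was 913 to 979 in Zbtb46- CDPs, 2002 to 2512 in Zbtb46+ CDPs and 2633 to 3169 in Pre-CD8 DCs. Cd22, an inhibitory receptor of B cells, made up most of the rise between the CDP groups. It was at 7.99, 7.65 and 7.46 in Zbtb46- CDPs, at 10.66, 10.29 and 10.14 in Zbtb46+ CDPs and at 10.54, 10.84 and 10.51 in Pre-CD8 DCs. Its CDP difference was 2.66 (limma adjusted p = 3.12e-05). Fcrla, an Fc receptor-like gene of B cells, rose at both steps, by 0.67 and 1.50, and Fcer2a, which encodes the low-affinity IgE receptor CD23, rose by 0.43 at the first step from a dim 5.50 ± 0.01. Without the arrays low in Xist Fcer2a did not pass (0.31, limma adjusted p = 0.074). Then 2 of the 10 markers were higher between the CDP groups, where 8.71% of all genes were. With all arrays, 1 of the 10 was higher from Zbtb46+ CDPs to Pre-CD8 DCs. From Zbtb46- CDPs to Pre-CD8 DCs 3 were, with 0 lower in either comparison. With all arrays 3.85% of all genes were higher and 10.6% lower between the CDP groups. From Zbtb46+ CDPs to Pre-CD8 DCs these shares were 4.76% and 1.86%, and from Zbtb46- CDPs to Pre-CD8 DCs 6.43% and 9.23%.

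Genes around the receptor signalling members moved in both directions. Of 17 measured, 3 were higher and 2 lower at the first step, 1 and 1 at the second, and 5 and 2 over the whole span. Cd22, already counted as a B cell marker, was among those higher at the first step and over the whole span. Fyn, a SRC family kinase gene, rose by 0.97 and Dok3, an adaptor that restrains receptor signalling, fell by 0.62 at the first step. Dok3 then fell by 0.94 more. Rasgrp3, which encodes an activator of RAS, was at 5.54 ± 0.22 and 5.62 ± 0.23 in the CDP groups and rose by 2.22 to 7.84 ± 0.07 in Pre-CD8 DCs. Of all genes 3.85%, 4.76% and 6.43% were higher and 10.6%, 1.86% and 9.23% lower at the first step, the second and over the whole span. The list's median differences were 0.09, 0.16 and 0.21. Without the arrays low in Xist 7 were higher and 1 lower at the second step, and 8 and 2 over the whole span. Of all genes 12.5% were then higher and 7.87% lower at the second step, and 9.4% and 10.8% over the whole span.

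**Figure D4:**
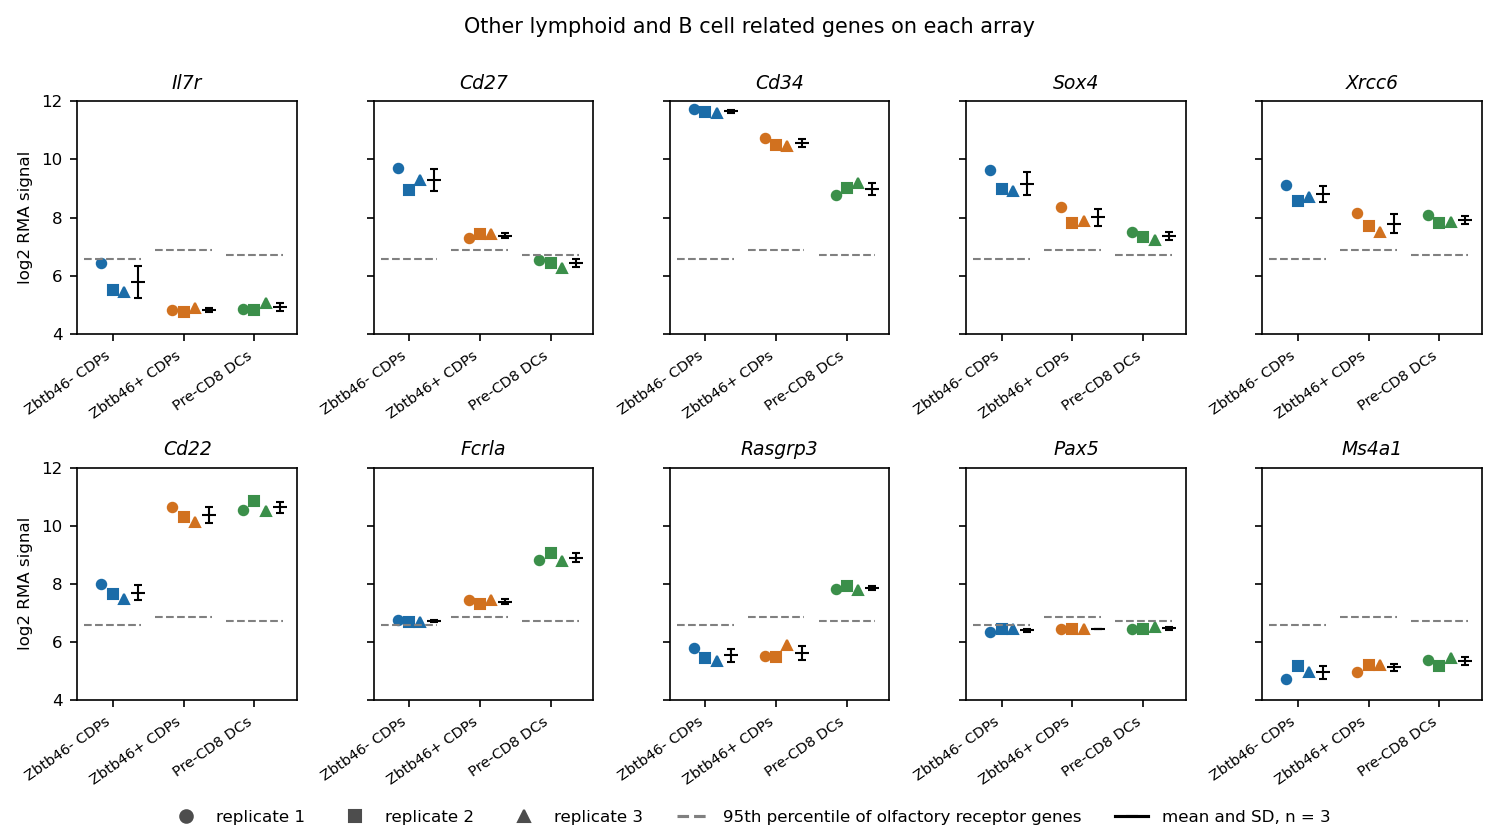
Log2 signal (y axis) of 10 related genes on each array by population (x axis), with symbols, bars and dashed lines as for the members. Il7r, Cd27, Cd34, Sox4 and Xrcc6 are highest in Zbtb46- CDPs, Cd22 and Fcrla are lowest there, Rasgrp3 is high in Pre-CD8 DCs alone, and Pax5 and Ms4a1 stay under the dashed line.

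Of 10 receptor and surface genes of lymphoid progenitors, 5 were lower and 0 higher in Zbtb46+ than in Zbtb46- CDPs, and the other 5, Notch1 and Ccr9 among them, were not called. From Zbtb46+ CDPs to Pre-CD8 DCs 2 were lower and 3 higher, and 5 were lower and 2 higher over the whole span. Of all genes 10.6%, 1.86% and 9.23% were lower and 3.85%, 4.76% and 6.43% higher in the same order. The list's median differences were -0.57, -0.03 and -0.62. Without the arrays low in Xist 6 were lower and 0 higher at the first step, where 13.8% of all genes were lower and 8.71% higher. Notch1 was then called (-0.78, limma adjusted p = 0.000743). Il7r, the receptor chain gene for the lymphoid growth factor interleukin 7, was at 6.42, 5.49 and 5.45 in Zbtb46- CDPs, at 4.82, 4.76 and 4.90 in Zbtb46+ CDPs and at 4.86, 4.82 and 5.07 in Pre-CD8 DCs. It fell by 0.96 at the first step (limma adjusted p = 0.022) within the olfactory receptor range, and by 0.64 without the arrays low in Xist (limma adjusted p = 0.00468). Cd27, a costimulatory receptor gene found on lymphoid-primed progenitors, fell by 1.92 and then 0.96, and Cd34, a progenitor surface gene, by 1.10 and then 1.56. Flt3, the receptor gene for the main DC growth factor, went from 11.19 ± 0.06 to 10.70 ± 0.25 and back to 11.29 ± 0.08, both steps passing the test. Ccr9, a chemokine receptor gene, rose by 1.40 at the second step.

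The joining enzymes that complete V(D)J recombination are also used in general DNA repair. The list taken for them also held the kinase gene Atm and the RAG cofactor genes Hmgb1 and Hmgb2, which are not joining enzymes. Of its 11 genes measured, 3 were lower and 0 higher at the first step, and 2 lower and 1 higher at the second. Over the whole span 4 were lower and 1 higher. Of all genes 10.6%, 1.86% and 9.23% were lower and 3.85%, 4.76% and 6.43% higher in the same order. The gene that was higher was Polm, by 0.61 at the second step and 0.67 over the whole span. It was named after its values had been seen. Xrcc6, which encodes the end-binding protein Ku70, fell by 1.01 from 8.80 ± 0.28 and Atm, a damage-signalling kinase gene, fell by 0.50 at the first step. Prkdc, which encodes the DNA-dependent kinase subunit, fell by 0.34 at the first step and by 0.53 at the second. Without the arrays low in Xist its first step did not pass (-0.23, limma adjusted p = 0.101). Hmgb1, which encodes a DNA-bending cofactor of RAG, fell by 0.52 at the second.

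Among 22 transcription factor genes of early lymphoid and B cells, 2 were higher and 2 lower at the first step. At the second 1 was higher and 1 lower, and over the whole span 3 were higher and 6 lower. Of all genes 3.85%, 4.76% and 6.43% were higher and 10.6%, 1.86% and 9.23% lower in the same order. Id2, an inhibitor of E proteins, rose by 3.86 and then 1.23, from 6.56 ± 0.40 in Zbtb46- CDPs to 11.65 ± 0.11 in Pre-CD8 DCs. Tcf3, which encodes the E proteins E12 and E47, was at 9.36 ± 0.31, 9.49 ± 0.53 and 9.24 ± 0.10 and was not called. Sox4, a factor of B cell progenitors, fell by 1.16 at the first step. Zfp521 fell by 0.89 at the second step, and Spi1, which encodes the myeloid and lymphoid factor PU.1, rose by 1.06 over the whole span. Without the arrays low in Xist 3 were higher and 4 lower at the first step, and 3 and 2 at the second. Of all genes 8.71% were then higher and 13.8% lower at the first step, and 12.5% and 7.87% at the second.

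Genes of other lineages were measured beside these values. The summed linear signal of 11 T, NK and innate lymphoid markers was 927 to 1252 in Zbtb46- CDPs, 987 to 1512 in Zbtb46+ CDPs and 827 to 913 in Pre-CD8 DCs, highest in replicate 1 of each CDP group. That of 8 plasmacytoid DC markers was 4395 to 5548, 3578 to 3864 and 3770 to 4255 in the same order. Of 8 plasmacytoid DC and 11 granulocyte genes, 1 and 4 were lower and 0 higher at the step where Dntt fell. Of all genes 10.6% were lower and 3.85% higher there. The median differences of these lists were -0.27 and 0.14, against 0.04 over all genes. The granulocyte genes did not move together: Ctsg and Mpo differed by -2.59 and -1.71, while Ngp differed by 0.15 and was not called. The part of plasmacytoid DCs and granulocytes in the falls of Dntt, Blnk and Cd79b was not tested.

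The position of the members was compared with their behaviour. Blnk and Dntt are adjacent protein-coding genes in the RefSeq order, flanked by Zfp518a, which did not pass (-0.48 at the first step, limma adjusted p = 0.0766), and Opalin, a myelin gene that was dim at 4.98 in both CDP groups. Rag1 and Rag2 are adjacent on chromosome 2. Their flanking genes were lower in Zbtb46+ CDPs where they were not called, Iftap by 1.21 on the log2 scale (difference -1.21, limma adjusted p = 0.00472) and Traf6 by 0.48 (difference -0.48, limma adjusted p = 0.0263). Igll1 and Vpreb1 are neighbours on chromosome 16, and the next gene, Top3b, a topoisomerase gene, differed by -0.81 (limma adjusted p = 0.000316).

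For the 3 members that passed the F test, the most similar genes were taken by Pearson r over the 9 arrays among the other 3683 candidate genes that passed it. These r are descriptions, since the arrays fall into 3 groups that set much of the likeness. For Dntt they were Hoxa5 (a homeobox factor gene of progenitors), Il7r and Agtrap, each with r = 0.98. For Blnk they were Pdha1 (a pyruvate dehydrogenase subunit gene, r = 0.99), Sae1 and Dzip3 (r = 0.98 each). For Cd79b they were Shmt1 and Phgdh, both of serine and glycine metabolism, and Hoxa9, another homeobox gene of progenitors (r = 0.99 each). Shmt1 went from 8.90 ± 0.28 through 7.77 ± 0.03 to 7.34 ± 0.06 and Hoxa9 from 8.28 ± 0.25 through 7.50 ± 0.11 to 7.13 ± 0.11 (SD, n = 3), stepping down as Cd79b did.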

How the data were processed

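Per the labels' protocols, picogram to nanogram amounts of RNA from sorted cells were labelled with a whole-transcript kit. Per the submitters' processing notes, RMA in Affymetrix Expression Console was used; versions and settings are not given in the sources used here. The deposited values are signal intensity per probe set on a linear scale (7.45 to 20455.6), as the authors gave them; RMA values had been assumed, and log2 was taken because the table was linear. No further scaling or dim filter was applied. Of 28853 probe sets, 21789 had 1 symbol, 1621 several and 5443 none here; the highest-mean probe set of the 999 genes with several was kept, giving 19938 genes. Array medians were 110.2 to 118.0, and the residual SD had a median of 0.136 (log2) over all genes.

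Group means of all 9 arrays were fitted with limma 3.58.1 (lmFit, eBayes) in R 4.3.3, with Benjamini-Hochberg adjustment and calls under 0.05. The script was tested on simulated data. The members and lists were chosen with earlier results of these data known. Named were the members, up to 4 called genes with the largest difference per list, Il7r, Pax5, Flt3, Tcf3, Id2, Ms4a1, Ighm and Zbtb46, and the 3 genes most like each member passing the F test, leaving out predicted genes; neighbours were named by position. List genes not matched to a 1-symbol probe set were not analysed here, and an item of the naming rule is not reported here.

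Residuals of same-numbered arrays correlated by 0.51, 0.42 and 0.36 between the CDP groups, and a replicate block was an alternative. Differently numbered CDP arrays reached 0.38. Residuals cancel out within a group, so the likeness of the replicate 1 arrays also raises the values among replicates 2 and 3. Whether the numbers pair the arrays beyond replicate 1 cannot be told from these values. With Pre-CD8 DCs the same-number values were -0.03 to 0.17. The other alternatives were quantile and median scaling, 2 dim filters, other probe set rules, trend and robust moderation, array weights, fits of 2 groups, a threshold of 0.01, each array left out, the arrays low in Xist left out and, added after seeing the data, those arrays as a covariate. Figures were made with matplotlib 3.10.9 in Python 3.11.15.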

Additional observations from a re-analysis of the deposited data

How the results depend on the processing

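Dntt and Blnk were called lower in Zbtb46+ than in Zbtb46- CDPs under all 20 alternatives that kept them (differences -2.85 to -1.82 and -1.15 to -0.65, limma adjusted p up to 0.0367 and 0.042), and Cd79b under all 21 (-0.61 to -0.36, up to 0.0306). Against Pre-CD8 DCs the same counts held, with ranges of -2.73 to -1.7, -1.15 to -0.79 and -0.88 to -0.7. Not every alternative could move these differences. Each member had 1 probe set, so the other probe set rules left its values unchanged. Leaving out a Pre-CD8 DC array left the differences between the CDP groups unchanged. Such alternatives could alter only the p-values. With the replicate block, 3, 0 and 3 members were called in the 3 comparisons and 3 by the F test, as without it, and 3460, 1443, 3467 and 4285 genes. In the order Zbtb46+ minus Zbtb46- CDPs, Pre-CD8 DCs minus Zbtb46+ CDPs, Pre-CD8 DCs minus Zbtb46- CDPs and F test, array weights called 6430, 3062, 6955 and 8701 genes, 7 members in the third (6 lower, and Cd79a higher by 0.21) and 5 by the F test. A threshold of 0.01 called 1405, 543, 1877 and 2094 genes. Fits of the 2 groups alone called 1858 and 850 genes in the first and second. Without the arrays low in Xist 4495, 4066 and 6203 genes were called in the first, the second and the F test, and 2 members in the second; with those arrays as a covariate 5359, 3130 and 6197 genes were. Leaving out 1 array gave 1793 to 5268 genes in the first, 662 to 2672 and 0 to 1 members in the second, and 2624 to 6273 by the F test. The highest were all without Zbtb46+ replicate 1. With genes under the median of the 1-symbol probe sets dropped, 1 member was left, Cd79b, and 1 was called in the first, the third and the F test. Quantile normalization called 1 member in the second. Signs turned only for uncalled differences. In the first these were Cd79a (-0.01), Vpreb3 (-0.04) and Ebf1 (-0.12) with quantile normalization, and Rag1 with array weights (0.01). Without single arrays the first ran from -0.19 to 0.12 for Rag1 (the top without Zbtb46- replicate 1), -0.03 to 0.06 for Ebf1 and -0.01 to 0.05 for Vpreb3. In the second they were Blnk and Ebf1 with quantile normalization (0.01 each), Blnk (0.01) and Rag1 (0.06) with the covariate, and Rag1 without the arrays low in Xist (0.02). Without single arrays the second ran from -0.17 to 0.02 for Rag1, -0.51 to 0.01 for Vpreb1, -0.16 to 0.12 for Blnk and -0.05 to 0.06 for Cd79a. In the third Rag1 turned without the arrays low in Xist (0.02) and ran from -0.27 to 0.02 without single arrays. Against all genes in place of olfactory receptor genes, the Zbtb46- CDP levels were at percentiles 64.1 (Dntt), 50.5 (Blnk), 9.9 (Cd79a), 80 (Cd79b), 23.1 (Rag1), 17.3 (Rag2), 47.7 (Igll1), 53.9 (Vpreb1), 35.5 (Vpreb3) and 12.5 (Ebf1). The causes were not tested. Signal within the range of the olfactory receptor genes limits what can be read from most members.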

Other observations

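Thy1 and Cd5, surface genes of T cells that other lymphocytes can also use, were higher in Zbtb46+ than in Zbtb46- CDPs. Thy1 went from 7.05 ± 0.33 to 7.95 ± 0.18 (SD, n = 3) and stood at 7.35 ± 0.07 in Pre-CD8 DCs. Cd5 went from 7.14 ± 0.19 to 7.76 ± 0.33 and 7.91 ± 0.12. The T cell receptor complex genes Cd3d, Cd3e and Cd3g were not called in any comparison. Nkg7, a cytotoxic granule gene, was at 9.17, 7.81 and 8.03 in Zbtb46- CDPs, at 9.02, 7.13 and 7.30 in Zbtb46+ CDPs and at 6.21, 6.27 and 5.89 in Pre-CD8 DCs, and fell by 2.21 over the whole span (limma adjusted p = 0.0155). Its highest arrays were replicate 1 of both CDP groups, the arrays low in Xist. Cd3d, Cd3e and Cd3g were named here after their values had been seen. Siglech, a receptor gene of plasmacytoid DCs, fell by 0.75 over the whole span, while Ccr9 rose by 1.84.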
